A study of Mus musculus with 5 samples.

Results

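The epithelial-mesenchymal transition (EMT) genes described here are the standard regulators and markers of that transition: the transcription factors Snai1, Snai2, Twist1, Twist2, Zeb1 and Zeb2, the cadherins Cdh1 and Cdh2, the intermediate filament gene Vim and the matrix gene Fn1. They were taken by symbol from a fixed list of 10, of which 9 were present among 30840 deposited features. Snai1 was not analysed here. Of the 9 genes, 8 passed the filter on low counts and were among the 22181 genes tested.

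The RNA came from hair follicle stem cells, the slow-cycling cells of the bulge that regenerate the hair follicle, from the back skin of mice at postnatal day 70. Every mouse, controls included, was Ring1a-/- and Ring1b flox/flox and had 1% RU-486 applied to the skin once a day for 10 days, starting at postnatal day 50. The PRC1 i2KO group (3 samples, numbered 1 to 3) carried the K15-CrePR1 transgene in addition, in which the keratin 15 promoter drives a Cre recombinase that RU-486 activates, so that Ring1b is lost in keratin 15-expressing cells on top of Ring1a. The Control group (2 samples, numbered 2 and 3) lacked the transgene, which means that it was deficient in Ring1a but kept Ring1b, and that the transgene and the deletion cannot be told apart. Cells were sorted as EpCAM+, Sca1-, α6-integrin high and CD34+, with 50000 cells per sample. Whether the samples are separate mice is not stated in the labels. The p-values below therefore reflect sample-to-sample spread that may be technical.

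In an EMT, epithelial cells loosen their cell-cell junctions and take on the shape and motility of mesenchymal cells. SNAIL, ZEB and TWIST transcription factors drive it, in large part by repressing the E-cadherin gene Cdh1 and other junction genes, while N-cadherin (Cdh2), vimentin (Vim) and fibronectin (Fn1) are the usual markers of the mesenchymal state. Polycomb repressive complex 1 (PRC1), whose catalytic subunits are Ring1a and Ring1b, places ubiquitin on histone H2A and keeps developmental genes silent, and in several epithelia its subunits have been linked to both the repression of Cdh1 and the silencing of mesenchymal genes.

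Library totals ranged from 11626006 to 43307694 counts, with the smallest library in the Control group, and mitochondrial ribosomal RNA took between 16.7% and 32.0% of the counts. The libraries carried the sort's identity: Krt15, a bulge keratin, was between 3418 and 5076 CPM (counts scaled to a common library size by edgeR's TMM, not for length) in every library, and the sort marker Cd34 was between 164 and 477 CPM. The bulge factor gene Lhx2 was between 409 and 718 CPM, and the 12 stem cell markers summed to 12695 and 13348 CPM in Control and 11781 to 14409 CPM in PRC1 i2KO. The targeted gene Rnf2 (Ring1b) overlapped between the groups in CPM, at 27.7 and 37.5 in Control 2 and 3 and 39.9, 33.1 and 36.4 in PRC1 i2KO 1, 2 and 3. Its log2 fold change was 0.16 ± 0.25 (SE; edgeR adjusted p = 0.87). In TPM, the authors' unit scaled for transcript length, Rnf2 did not overlap, at 25.1 and 24.4 in Control and 16.8, 12.9 and 11.7 in PRC1 i2KO. TPM also shifts other genes, with a median log2 fold change of -0.25 over all genes on log2(TPM + 1), and moves with the transcript length assigned. Ring1 (Ring1a) stood between 1.58 and 5 CPM in all libraries. Such counts per gene cover the exons that recombination leaves in place as well, so they are no check of the labels.

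The control bulge cells held high levels of both a core EMT factor and E-cadherin. In TPM (the authors' unit of transcript abundance, scaled for length and library size and used here wherever genes are compared with each other), Snai2 was at 105 and 74.6 TPM in Control 2 and 3 and Cdh1 at 74.5 and 60.9 TPM. Their Control means were 90.1 ± 21.8 and 67.7 ± 9.66 TPM (SD, n = 2), at percentiles 97.7 and 96.8 of the genes with a TPM above 0 there. Snai2 encodes the zinc-finger repressor SLUG, which binds E-box sequences such as those of the Cdh1 promoter and is also known as a marker of basal progenitor cells in stratified epithelia. Snai2 exceeded Cdh1 in both controls, by ratios of 1.42 and 1.23, although the ranges of mean ± SD overlapped.

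The other members were far lower per length, with Cdh1 exceeding the next of them, Fn1, 15.4 and 16.2 times in the controls. Fn1 had a Control mean of 4.30 ± 0.782 TPM, Zeb2 of 2.03 ± 0.0364 TPM, Zeb1 of 1.19 ± 1.53 TPM, Vim of 0.394 ± 0.536 TPM and Cdh2 of 0.265 ± 0.0680 TPM (SD, n = 2 each), and Twist1 and Twist2 were listed at 0. Fn1 lay above Zeb2 in both controls. From Zeb2 downwards the order is not resolved: Zeb1 exceeded Zeb2 in Control 2 and was far below it in Control 3, and Vim lay below Cdh2 in Control 2 and above it in Control 3. By PRC1 i2KO mean, Snai2 (66.3 ± 24.7 TPM), Cdh1 (60.8 ± 9.53 TPM) and Fn1 (6.25 ± 3.36 TPM; SD, n = 3 each) again came first. Vim, at 3.78 ± 2.00 TPM, stood 4th by mean there against 6th in Control, and exceeded Fn1 in PRC1 i2KO 1 (5.52 and 2.96 TPM). Cdh2 had a mean of 0.0489 ± 0.0378 TPM, within the spread of Twist1 (0.188 ± 0.173 TPM) and Twist2 (0.0797 ± 0.138 TPM), so the order at the low end is not resolved either.

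**Figure D1:**
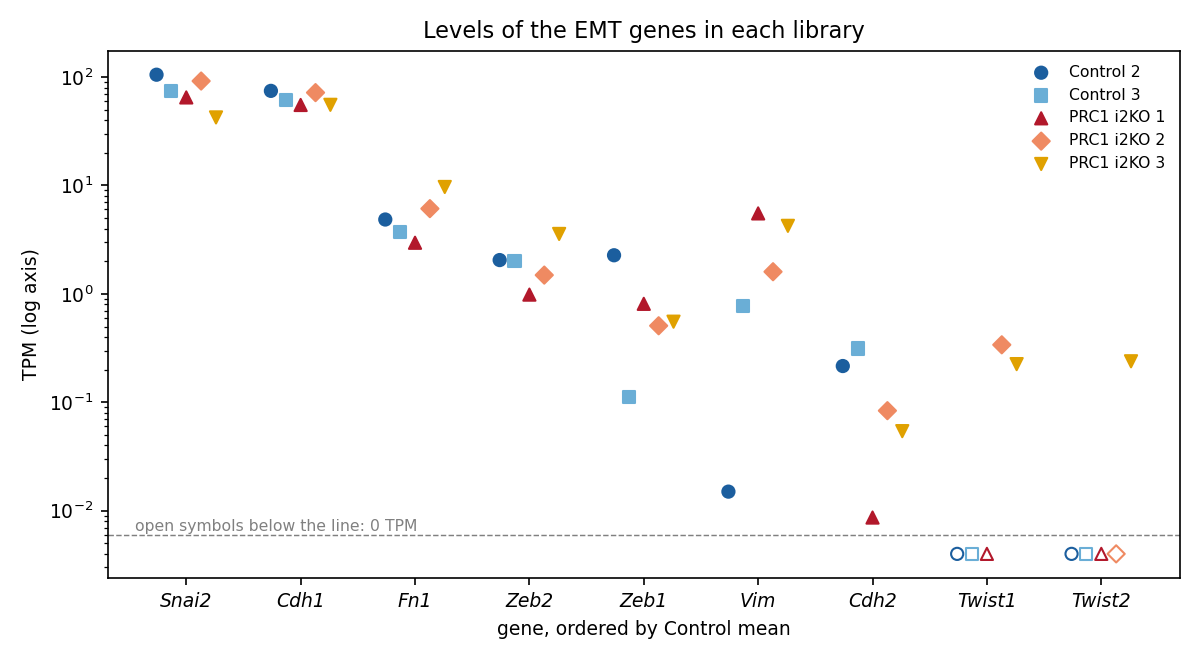
TPM (log axis) of the 9 EMT genes in each of the 5 libraries, 1 symbol per library, with genes ordered by their Control mean and values of 0 drawn as open symbols below the dashed line. Snai2 and Cdh1 stand above 40 TPM in every library, while Vim spans from 0.0150 TPM in Control 2 to 5.52 TPM in PRC1 i2KO 1.

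The comparison of PRC1 i2KO with Control asks which of these genes depend on PRC1 in bulge cells. None of the 8 tested members passed in either direction (edgeR quasi-likelihood test, Benjamini-Hochberg adjusted over all genes, threshold 0.05), against 0.126% of all 22181 genes higher (28 genes) and 0% lower. A count of 0 among 8 is close to that background and is not a result about these genes. At an unadjusted p under 0.05, Vim, Twist1 and Fn1 were higher and 0 members were lower, where 7.43% of all genes were higher and 3.51% lower. DESeq2 called Vim higher and no member lower, while over all genes it called 3.57% higher and 0.786% lower. The number of genes called depended on single libraries: 28 genes became 4 without Control 2, 8 without Control 3, 8 without PRC1 i2KO 1, 39 without PRC1 i2KO 2 and 14 without PRC1 i2KO 3. Scaling also moved the balance of calls over all genes, with 27 higher and 3 lower on library sizes alone and 7 higher and 13 lower by limma on log2(TPM + 1). Among the members the median log2 fold change was 0.00, with 4 of 8 positive, beside a median of 0.01 over all genes tested, of which 11172 of 22181 were positive. In CPM, Vim, Cdh1 and Fn1 were above both controls in every PRC1 i2KO library (the last 2 by margins invisible at 3 digits), which 14.6% of all genes were, and Cdh2 was below both, as were 15.3%.

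**Figure D2:**
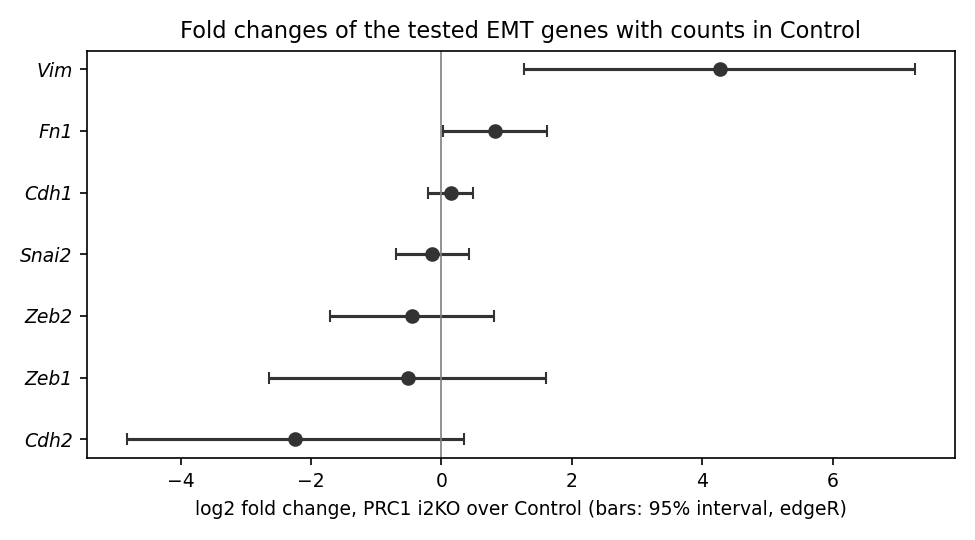
log2 fold change of PRC1 i2KO (3 libraries) over Control (2 libraries) by edgeR for the 7 tested EMT genes with a count in Control, with 95% intervals as bars. The interval of Cdh1 is the narrowest, from -0.21 to 0.49, and that of Vim runs from 1.26 to 7.27; Twist1 is left out because it had no control count.

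Vim showed the largest difference of any member with counts in Control. Vimentin is the intermediate filament protein of mesenchymal cells. Vim (ENSMUSG00000026728.9) had 1 and 7 counts in Control 2 and 3 and 124, 77 and 203 counts in PRC1 i2KO 1, 2 and 3. That corresponds to 0.0203 and 0.555 CPM in the controls and to 5.68, 1.74 and 6.42 CPM in the PRC1 i2KO libraries. All 3 PRC1 i2KO libraries exceeded both controls, as in 13.8% of the 5262 tested genes with a Control mean under 1 CPM. The 95% counting intervals did not overlap either: the lowest PRC1 i2KO library reached down to 1.37 CPM and the highest control up to 1.14 CPM. Mean levels were 0.288 ± 0.378 CPM (SD, n = 2) in Control and 4.61 ± 2.52 CPM (SD, n = 3) in PRC1 i2KO, 16.0-fold apart, and the ratio of pooled counts was 32.0 with a 95% counting interval of 16.1 to 74.5.

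The log2 fold change of Vim was 4.27 ± 1.33 (SE) and did not pass edgeR's threshold (adjusted p = 0.287), with 3 of 3 PRC1 i2KO libraries above both controls. DESeq2 gave a nearly equal fold (log2 fold change 4.22) and passed it (adjusted p = 0.00794). Leaving out single libraries moved the edgeR value between 3.04, without Control 2, and 7.61, without Control 3, with adjusted p between 0.201 and 0.872. Vim remained a minor transcript in all libraries, with a Cdh1 to Vim ratio in TPM of 10.0, 45.0 and 13.1 in PRC1 i2KO 1, 2 and 3 against 4956 and 78.7 in Control 2 and 3.

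Within the PRC1 i2KO group Vim was uneven, with PRC1 i2KO 2 at 1.74 CPM and the other two above 5 CPM. Mitochondrial ribosomal RNA was likewise at 21.4% of counts in PRC1 i2KO 2 and at 29.7% and 32.0% in PRC1 i2KO 1 and 3, with 16.7% and 22.6% in Control 2 and 3. Its part in the Vim values was not tested. The genes whose profile over the 5 libraries was most like that of Vim, by the root mean square difference of centred log2 CPM among 16933 genes of at least 1 CPM, were the homeobox gene Otx1 (0.20), the muscarinic receptor gene Chrm3 (0.41) and the protease gene Bace2 (0.43). Otx1 had 0.0203 and 0.476 CPM in Control 2 and 3 against 6.69, 2.01 and 5.38 CPM in PRC1 i2KO 1, 2 and 3 (edgeR adjusted p = 0.248).

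Other intermediate filament genes were examined beside Vim as a list of 15, of which 13 were tested. By edgeR 0 passed in either direction, 10 of 13 were positive, and the median log2 fold change was 0.58 (-0.12 on the log2(TPM + 1) scale). List medians on that scale, here and below, cover only genes with at least 1 TPM in 2 libraries. The lowest p belonged to Krt17, a keratin of activated and appendage epithelium, at 132 and 167 CPM in Control and 458, 301 and 368 CPM in PRC1 i2KO (log2 fold change 1.33 ± 0.22, adjusted p = 0.0867). Nes, which encodes the progenitor filament nestin, was at 0.284 and 0.635 CPM in Control against 4.22, 3.97 and 8.76 CPM in PRC1 i2KO (log2 fold change 3.69, adjusted p = 0.165). The simple-epithelial keratin Krt8 had 2 counts over both controls and levels of 3.35, 1.06 and 1.90 CPM in PRC1 i2KO, with an adjusted p of 0.177. Like Vim, these 3 genes showed no overlap between the groups, and over the list 5 were above and 1 below both controls, beside 14.6% and 15.3% of all genes.

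Vim is abundant in fibroblasts, melanocytes, immune and endothelial cells, so markers of these cells were measured in the same libraries. Of the 14 fibroblast markers measured, 9 were tested, 0 passed by edgeR, and in every PRC1 i2KO library 5 lay above both controls and 1 below, beside 14.6% and 15.3% of all genes. The list's summed level was 222 to 297 CPM in Control and 234 to 311 CPM in PRC1 i2KO. Most of that sum came from genes other than the defining markers, so it does not follow them. The defining fibroblast markers were mixed: Col3a1 had no count except in PRC1 i2KO 2 (0.271 CPM), where Vim was lowest of its group, whereas Pdgfra was at 3.37 and 2.22 CPM in Control and 32.5, 25.4 and 16.0 CPM in PRC1 i2KO (adjusted p = 0.0502) and Col1a1 at 3.41 and 2.94 against 11.2, 19.7 and 7.88 CPM (adjusted p = 0.215). Dermal papilla markers summed to 69.8 to 88.1 CPM in Control and 97.6 to 127 CPM in PRC1 i2KO, nearly all of it from genes other than the defining markers. Of 10 measured 5 were tested, with 2 above and 0 below both controls in every PRC1 i2KO library, beside 14.6% and 15.3% of all genes. Of their defining markers, Sox2 had no count in Control and 0.293 to 0.596 CPM in PRC1 i2KO, Alx4 was at 0.0406 and 0.0793 against 0.229 to 1.68 CPM, and Corin had at most 0.127 CPM in any library.

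The other marker lists had the following summed levels. Melanocyte markers (5 of 8 tested) summed to 160 to 205 CPM in Control and 82.8 to 127 CPM in PRC1 i2KO, of which the defining Dct and Pmel were a small part. Immune markers (4 of 10 tested) summed to 5.18 to 7.70 and 8.48 to 13.0 CPM, endothelial markers (6 of 7) to 14 to 21.4 and 20.1 to 25.8 CPM, and adipocyte markers (5 of 7) to 4.53 to 6.82 and 5.89 to 13.6 CPM. Schwann cell markers (7 of 10) summed to 138 to 139 and 158 to 216 CPM, with Sox10 at 0 in both controls and in PRC1 i2KO 2. Mural and muscle markers (3 of 7) summed to 253 to 256 and 215 to 244 CPM, nearly all of it Cspg4, while Rgs5 and Myh11 were at most at 0.159 CPM. The defining markers Ptprc of immune cells, Pecam1 of endothelium and Dct of melanocytes overlapped between the groups, at 2.86 to 4.26, 11.4 to 18.4 and 2.62 to 4 CPM in Control. Over all libraries Pmel was at 0.596 to 4.05, Csf1r at 0.285 to 0.917 and Plin1 at 0.338 to 1.03 CPM, the T cell gene Cd3e was at 2.59 CPM in PRC1 i2KO 2 and at most 0.317 elsewhere, and endothelial Kdr was at 0.386 and 1.35 CPM in Control and at most 0.183 in PRC1 i2KO. The part of other cells in the Vim values was not tested, and in sorted bulk samples more such cells and more RNA per cell cannot be told apart.

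Both TWIST genes, which encode basic helix-loop-helix factors of the mesoderm and of dermal cells, had no count in Control. Twist1 (ENSMUSG00000035799.6) had 0 counts in Control 2, Control 3 and PRC1 i2KO 1, 23 counts in PRC1 i2KO 2 (0.519 CPM) and 13 in PRC1 i2KO 3 (0.411 CPM). The mean of the PRC1 i2KO libraries was 6.39-fold the limit that a count of 0 allows over both controls pooled (3 counts, 0.0485 CPM). The groups overlapped because PRC1 i2KO 1 had no count, and Twist1 did not pass edgeR's threshold (adjusted p = 0.440). Twist2 (ENSMUSG00000007805.4) had 11 counts in PRC1 i2KO 3 (0.348 CPM) and 0 in the other 4 libraries, and was left out of the test by the filter on low counts. A count of 0 allows up to 0.238 CPM in Control 3, the shallowest library, so Twist1 in PRC1 i2KO 2 and 3 and Twist2 in PRC1 i2KO 3 exceeded that limit by less than 3-fold. In the same libraries single dermal genes, picked after their values were seen, had counts that were absent or fewer elsewhere: the collagen gene Col3a1 (0.271 CPM) and the lysyl oxidase gene Lox (1.58 CPM) in PRC1 i2KO 2, both at 0 in the other 4, and the proteoglycan gene Dcn in PRC1 i2KO 3 (3.13 CPM, at most 0.162 elsewhere), together with Prrx2 (0.443 CPM, 0 elsewhere). Other genes of those lists did not follow them: Mfap5 was at 0.487 and 0.238 CPM in Control and 0.158 CPM in both PRC1 i2KO 2 and 3, Prrx1 at 0.223 and 0.238 against 0.18 and 0.253 CPM, and Lum at 0 and 0.159 against 0.0677 and 0.158 CPM. The part of dermal cells in the TWIST values was not tested.

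**Figure D3:**
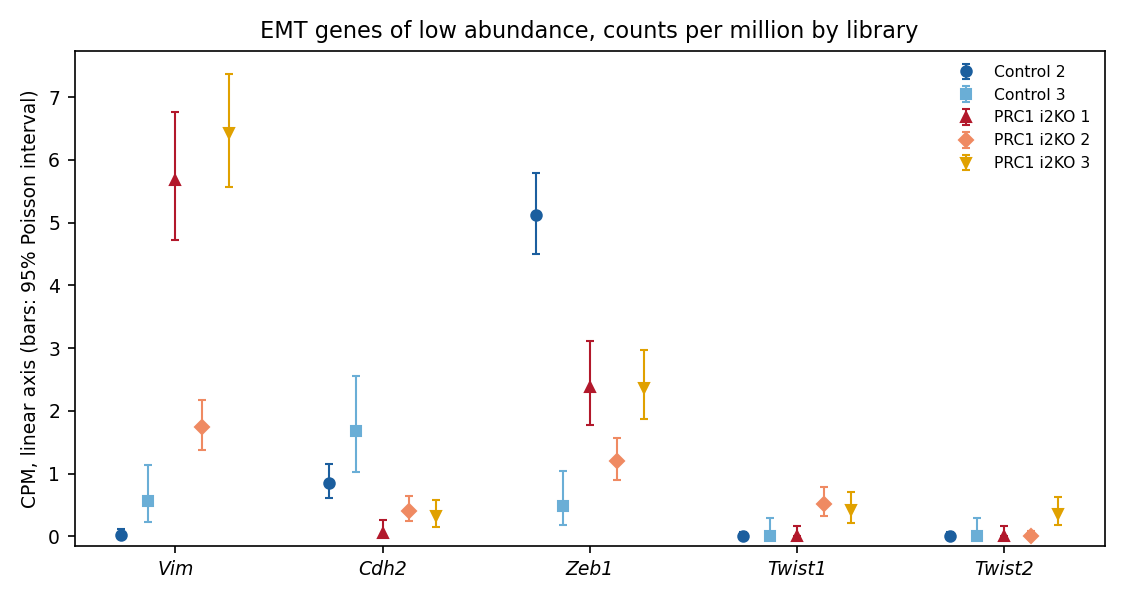
CPM (linear axis) of the 5 EMT genes of low abundance in each library, with exact 95% Poisson intervals for counting error as bars. The 3 PRC1 i2KO libraries stand above both controls for Vim and below both for Cdh2. Zeb1 has the largest absolute difference in CPM between the 2 controls, at 5.12 and 0.476 CPM.

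Vim, Twist1 and Twist2 are the members with at most 8 counts over both controls, and the sequences before their start sites are shown because CpG-rich promoters are the usual sites of Polycomb binding. Of the members, 5 matched RefSeq's promoter table (GRCm38.p6) by symbol, namely these 3, Zeb2 and Snai1. The lines give the 250 bases before the start, 5′ to 3′ on the plus strand, with CpG dinucleotides in capitals, for Vim at chr2:13574061-13574310, Twist1 at chr12:33957421-33957670 and Twist2 at chr1:91801211-91801460.
Vim: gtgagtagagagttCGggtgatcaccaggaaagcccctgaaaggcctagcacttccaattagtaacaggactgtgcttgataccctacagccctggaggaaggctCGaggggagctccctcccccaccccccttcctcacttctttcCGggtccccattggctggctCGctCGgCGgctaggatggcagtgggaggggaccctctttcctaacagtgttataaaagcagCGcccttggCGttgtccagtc
Twist1: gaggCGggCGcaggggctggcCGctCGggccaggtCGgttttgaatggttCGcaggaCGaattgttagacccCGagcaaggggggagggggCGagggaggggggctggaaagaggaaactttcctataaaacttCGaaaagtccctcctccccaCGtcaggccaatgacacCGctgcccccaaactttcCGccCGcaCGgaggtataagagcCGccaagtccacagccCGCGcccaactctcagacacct
Twist2: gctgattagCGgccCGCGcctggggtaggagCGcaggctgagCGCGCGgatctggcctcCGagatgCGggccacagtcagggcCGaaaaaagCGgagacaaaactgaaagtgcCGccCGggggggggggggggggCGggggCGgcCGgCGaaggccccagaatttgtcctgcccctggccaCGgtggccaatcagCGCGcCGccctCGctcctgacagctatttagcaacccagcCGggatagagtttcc
The Vim stretch held 8 CpG dinucleotides, the Twist1 stretch 18 and the Twist2 stretch 23. Among 32851 promoters of the same length, 43.0% held at least 8, 21.7% at least 18 and 13.3% at least 23, with a median of 6. The 4 start sites of Zeb2, which was expressed in Control, held between 6 and 14, a range that includes the 8 of Vim. The E-box CAGGTG, a SNAIL and ZEB recognition sequence, was searched on both strands (as CAGGTG or CACCTG) and was in none of these 3 stretches, against 17.2% of all promoters. No binding or chromatin measurement was used here, and these counts only describe the letters in the windows.

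Snai2, the SNAIL factor measured here, did not separate the groups. Snai2 (ENSMUSG00000022676.7) was at 164 and 157 CPM in Control 2 and 3 and at 162, 178 and 98.7 CPM in PRC1 i2KO 1, 2 and 3. PRC1 i2KO 3 stood below the other 4 libraries, and the remaining values overlapped. The log2 fold change was -0.14 ± 0.25 (SE; edgeR adjusted p = 0.897), with a 95% interval of -0.70 to 0.43, and without PRC1 i2KO 3 it was 0.078. In TPM the ratio of Snai2 to Cdh1 was 1.17, 1.28 and 0.766 in PRC1 i2KO 1, 2 and 3, so that Cdh1 exceeded Snai2 in PRC1 i2KO 3 and in no other library.

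The ZEB genes encode paired zinc-finger and homeodomain repressors of Cdh1, and both were of low abundance. Zeb2 (ENSMUSG00000026872.17) was at 4.77 and 6.19 CPM in Control and at 2.57, 4.47 and 4.97 CPM in PRC1 i2KO (log2 fold change -0.45 ± 0.56, edgeR adjusted p = 0.830). PRC1 i2KO 1 was the lowest and the groups overlapped. Zeb1 (ENSMUSG00000024238.15) was at 5.12 CPM in Control 2 (252 counts) and at 0.476 CPM in Control 3 (6 counts), and at 2.38, 1.20 and 2.37 CPM in PRC1 i2KO 1, 2 and 3. The PRC1 i2KO libraries thus lay between the controls, whose counting intervals of 4.50 to 5.79 and 0.175 to 1.04 CPM were far apart. Its log2 fold change, -0.52 ± 0.94 (SE; edgeR adjusted p = 0.895), took its sign from Control 2: without that library it was 2.05 (adjusted p = 0.906), and without Control 3 it was -1.36.

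Shared reads make some of these values uncertain, since the sources used here do not give the use of strand in counting. In GENCODE M21, Zeb1, Zeb2 and Twist2 overlap genes on both strands, and Cdh2 and Fn1 overlap 1 gene on the opposite strand. Gm10125, opposite to Zeb1, had 29 counts in Control 2 and 7 in Control 3, where Zeb1 had 252 and 6. These counts are not scaled for depth, and the 2 libraries held 42916190 and 11626006 counts in all. In PRC1 i2KO 1, 2 and 3 Gm10125 had 6, 17 and 9 counts. Zeb2os had at most 2 counts in any library, and Gm29100, opposite to Twist2, had 36 in PRC1 i2KO 2, where Twist2 had 0. Vim, Snai2, Twist1 and Cdh1 overlap no other gene there.

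An exchange of E-cadherin for N-cadherin is a common score of EMT, and neither cadherin passed edgeR's threshold. Cdh1 (ENSMUSG00000000303.12), which encodes the E-cadherin of epithelial adherens junctions, was at 264 and 296 CPM in Control and at 316, 314 and 296 CPM in PRC1 i2KO. Control 3 and PRC1 i2KO 3 were equal to 3 digits, at 296 CPM. The log2 fold change was 0.14 ± 0.16 (SE; edgeR adjusted p = 0.806), with a 95% interval of -0.21 to 0.49. It was -0.12 on library sizes alone and -0.16 by limma on log2(TPM + 1), scalings that moved the median of all genes to -0.26 and -0.25, so its sign is not settled.

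Cdh2 (ENSMUSG00000024304.14), which encodes N-cadherin, had 42 and 21 counts in Control (0.853 and 1.67 CPM) and 1, 18 and 10 counts in PRC1 i2KO (0.0458, 0.406 and 0.316 CPM). N-cadherin transcripts were thus lower in all 3 PRC1 i2KO libraries than in either control, as were 15.3% of all genes. The 95% counting intervals of Control 2 (0.615 to 1.15 CPM) and PRC1 i2KO 2 (0.241 to 0.642 CPM) overlapped. The controls exceeded PRC1 i2KO by 3.43-fold in pooled counts (95% counting interval 2.18 to 5.53). The log2 fold change was -2.24 ± 1.14 (SE) and did not pass edgeR's threshold (adjusted p = 0.528), nor DESeq2's (adjusted p = 0.424), and single omissions of the 5 libraries gave -2.72 to -1.69. Per length, Cdh1 transcripts outnumbered Cdh2 transcripts by 344 and 195 to 1 in Control and by 6384, 857 and 1022 to 1 in PRC1 i2KO 1, 2 and 3.

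Fn1 (ENSMUSG00000026193.15) encodes fibronectin, a matrix glycoprotein that cells bind through integrins. It was at 17.0 and 13.2 CPM in Control and at 17.0, 32.5 and 30.8 CPM in PRC1 i2KO 1, 2 and 3. PRC1 i2KO 2 and 3 stood apart from the controls, while PRC1 i2KO 1 equalled Control 2 to 3 digits. The log2 fold change was 0.82 ± 0.35 (SE; edgeR adjusted p = 0.447), with 0.65 to 1.06 after single omissions of the libraries. Control and PRC1 i2KO means were 15.1 ± 2.68 CPM (SD, n = 2) and 26.8 ± 8.48 CPM (SD, n = 3). In TPM the groups overlapped, at 4.85 and 3.75 against 2.96, 6.11 and 9.68, with a log2 fold change of 0.35 on the log2(TPM + 1) scale (limma adjusted p = 0.823). The genes most like Fn1 in profile were Ssr2 (root mean square difference 0.029 on the log2 scale), Oas1c (0.060) and Prkaa2 (0.088), and those most like Cdh1 were Nf1 (0.020), Smc6 (0.028) and 9930021J03Rik (0.031), over the same 5 libraries.

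CPM and TPM differ in library scaling, and for Fn1, Zeb2, Zeb1 and Vim also in the transcript length that the deposited values imply for each library. A count divided by its TPM and by the library's median of that ratio gives a relative length, which for a gene with several isoforms moves with the isoforms to which reads were assigned. Relative to the Control mean it was 0.688 for Fn1 in PRC1 i2KO 3 and 1.36 in PRC1 i2KO 2, with 1.15 and 0.852 in the controls. PRC1 i2KO 1 was at 1.14, close to Control 2, and the 2 libraries had equal CPM to 3 digits but 2.96 and 4.85 TPM, a gap that lies in the library scaling and not in the length. For Zeb2 it was 0.400 in PRC1 i2KO 3 and 0.682 in PRC1 i2KO 1, against 1.01 and 0.990 in the controls. In TPM Zeb2 was highest in PRC1 i2KO 3 (3.57 TPM, against 2.05 and 2.00 in Control), although its CPM there lay within the range of the controls. Snai2, Cdh1 and Cdh2 had ratios between 0.956 and 1.01 in all libraries.

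**Figure D4:**
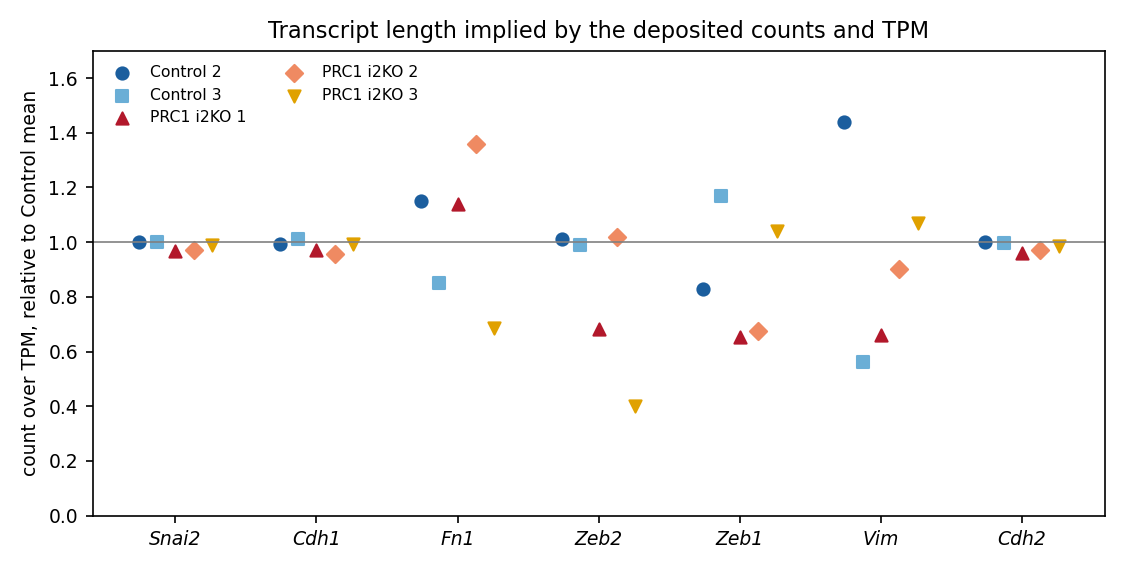
Transcript length implied by the deposited expected count and TPM, relative to the Control mean, for the 7 EMT genes with counts in every library, 1 symbol per library. Snai2, Cdh1 and Cdh2 stay near 1, whereas Zeb2 is at 0.400 and Fn1 at 0.688 in PRC1 i2KO 3, and Vim differs most between the controls (1.44 and 0.563), where it rests on 1 and 7 counts.

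Genes of the wider EMT network were examined as lists, and by edgeR 0 genes of any of the 11 lists passed in either direction, beside 0.126% of all genes higher and 0% lower. Among 9 tested further EMT transcription factors 7 were positive, with a median log2 fold change of 0.49. Foxc2, a forkhead factor of mesenchyme, was at 0.589 and 0.317 CPM in Control and at 9.94, 7.51 and 3.86 CPM in PRC1 i2KO (log2 fold change 3.90 ± 0.75, adjusted p = 0.134). Foxq1 was at 0.731 and 1.11 against 7.15, 4.92 and 4.93 CPM (2.64 ± 0.66, adjusted p = 0.202), and Sox4 at 2.13 and 5.47 against 20.1, 7.58 and 12.3 CPM (1.83 ± 0.60, adjusted p = 0.315). Each lay above both controls in all 3 PRC1 i2KO libraries, as did 4 of the 9, with 2 below both (14.6% and 15.3% of all genes). The list's median was 1.28 without Control 2, 0.91 without Control 3 and 0.05 on the log2(TPM + 1) scale, on which the median of all genes was -0.25. Prrx1 and Prrx2, mesenchymal homeobox genes, had 30 and 14 counts in all and were not tested.

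SNAIL and ZEB factors act through co-repressors, and a list of 12 genes drawn up for these was tested. Their median log2 fold change was 0.01 (-0.22 on the log2(TPM + 1) scale), and 6 were positive. The lowest p was that of Lmcd1, at 1.36 and 1.59 CPM in Control and 8.20, 1.94 and 12.7 CPM in PRC1 i2KO (adjusted p = 0.340), followed by the deacetylase genes Hdac1 (log2 fold change 0.40, adjusted p = 0.609) and Hdac2 (0.34, adjusted p = 0.679).

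Epithelial guardian genes are transcription and splicing factors that maintain the epithelial state. Of 12 tested 10 were positive, 5 exceeded both controls in all PRC1 i2KO libraries and 1 was below both (14.6% and 15.3% of all genes), and the median log2 fold change was 0.59 (0.32 on the log2(TPM + 1) scale). Klf5, a factor of proliferating basal epithelium, was at 48.6 and 42.0 CPM in Control and at 91.7, 109 and 96.1 CPM in PRC1 i2KO (log2 fold change 1.12 ± 0.20, edgeR adjusted p = 0.109). Grhl1, a grainyhead factor of desmosome gene expression, was at 21.4 and 33.6 against 59.3, 55.9 and 42.6 CPM (0.94 ± 0.28, adjusted p = 0.270). Elf3 had no count in Control and was at 0.962, 0.158 and 0.538 CPM in PRC1 i2KO, at least 11.4-fold higher in the mean (adjusted p = 0.290).

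Junction genes went in both directions, with more positive than negative. Among adherens junction partners 9 of 12 were positive, and 2 lay above and 2 below both controls in every PRC1 i2KO library. The 12 adherens junction partners of cadherins had a median log2 fold change of 0.08 (-0.27 on the log2(TPM + 1) scale), with the Control and PRC1 i2KO means of Nectin4 at 22.6 and 48.9 CPM (1.11 ± 0.27, edgeR adjusted p = 0.200), of the junction linker Plekha7 at 105 and 70.6 CPM (-0.57 ± 0.19, adjusted p = 0.325) and of the catenin Arvcf at 158 and 107 CPM (-0.56 ± 0.22, adjusted p = 0.398). Of 24 tested tight junction and desmosome genes 16 were positive, with a median of 0.28 (0.03 on the log2(TPM + 1) scale). Of these, 6 lay above and 3 below both controls in every PRC1 i2KO library, beside 14.6% and 15.3% of all genes. The desmosomal plakophilin Pkp1 was at 122 and 199 CPM in Control and 307, 308 and 362 CPM in PRC1 i2KO (1.02 ± 0.23, adjusted p = 0.172), and the claudin gene Cldn8 at 8.59 and 10.2 against 1.56, 2.91 and 1.77 CPM (-2.16 ± 0.54, adjusted p = 0.201). Cgnl1, a junctional scaffold, had a value of -0.54 (adjusted p = 0.284).

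All 10 tested genes of epithelial surface and trafficking were positive (median 0.27), with Rab25 at 6.99 and 20.1 CPM in the Control and PRC1 i2KO means (edgeR adjusted p = 0.340) and Ap1m2 at 14.6 and 20.7 CPM (adjusted p = 0.618). Over all genes 11172 of 22181 were positive. On the log2(TPM + 1) scale the median of the list was -0.10, beside -0.25 over all genes. The 6 markers of epidermis outside the gate, all tested, summed to 767 to 799 CPM in Control and 757 to 2484 CPM in PRC1 i2KO. Of these, 2 exceeded both controls in every PRC1 i2KO library and 0 were below both, beside 14.6% and 15.3% of all genes. Krt1 was at 66.4 and 94.4 against 92.2, 296 and 345 CPM. Krt10 was at 330 and 318 CPM in Control and 250, 1079 and 505 CPM in PRC1 i2KO, and Ly6a, which encodes the Sca1 antigen used to remove such cells, at 1.62 and 0.793 against 3.12, 4.78 and 4.93 CPM. Their part in the values of the epithelial genes was not tested.

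Mesenchymal matrix and cytoskeleton genes had no common direction. Of 20 tested genes 11 were positive, the median log2 fold change was 0.01 (-0.42 on the log2(TPM + 1) scale), and 4 lay above and 5 below both controls in every PRC1 i2KO library, beside 14.6% and 15.3% of all genes. The lowest p belonged to Axl, a receptor tyrosine kinase often tied to EMT, at 113 and 93.9 CPM in Control against 63.4, 65.5 and 48.9 CPM in PRC1 i2KO (log2 fold change -0.80 ± 0.21, edgeR adjusted p = 0.220). The tropomyosin gene Tpm2 was at 38.4 CPM in both controls against 89.7, 62.1 and 62.0 CPM in PRC1 i2KO (log2 fold change 0.89 ± 0.24, adjusted p = 0.233), and the matricellular YAP target Ctgf at 986 and 681 against 516, 522 and 320 CPM (-0.88 ± 0.24, adjusted p = 0.240). The smooth muscle actin gene Acta2 and Tagln, a pair of contractile markers often used for late EMT, had 33 and 24 counts over all 5 libraries and were not tested.

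The remaining lists concern partners of single members. Of 5 tested other cadherins 2 were positive, with a median of -0.09. The median was 0.39 on the log2(TPM + 1) scale, which leaves out genes under its TPM limit, such as Cdh8, so the medians cover different genes. The mesenchymal cadherin Cdh11 was at 5.46 and 3.81 CPM in Control against 22.5, 5.05 and 19.7 CPM in PRC1 i2KO (log2 fold change 1.75, edgeR adjusted p = 0.355). Cdh4 was at 0.62 on the log2 scale (adjusted p = 0.793) and Cdh8 at -0.87 (0.842). PRC1 i2KO 2 was the lowest of its group for Cdh11, as for Vim, but Cdh11 there lay between the controls, whereas Vim lay above both. Of 9 fibronectin receptor genes 3 were positive (median -0.08, and -0.71 on the log2(TPM + 1) scale), and 4 lay below both controls in every PRC1 i2KO library and 1 above, beside 15.3% and 14.6% of all genes. The syndecan gene Sdc4 had means of 689 and 511 CPM (adjusted p = 0.443) and the fibronectin receptor subunit Itga5, which also counts in the mesenchymal list, 43.0 and 29.4 CPM (0.514). Itga8 differed between libraries, at 0.0406 and 0.397 CPM in Control and 7.70, 0.0226 and 2.21 CPM in PRC1 i2KO (0.488).

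TGF-β, the main inducer of EMT, was represented by 12 tested genes of ligands, receptors, SMADs and targets, with 7 positive and a median log2 fold change of 0.16 (-0.20 on the log2(TPM + 1) scale). Hmga2, a chromatin protein that TGF-β induces and that activates Snai1 and Twist1 in other epithelia, was at 8.65 and 7.06 CPM in Control against 23.2, 24.2 and 30.0 CPM in PRC1 i2KO (log2 fold change 1.71 ± 0.31, edgeR adjusted p = 0.113). Smad3 was at 12.5 and 14.8 against 24.9, 27.1 and 22.5 CPM (0.87 ± 0.28, adjusted p = 0.314), and the receptor gene Tgfbr1 at 49.7 and 55.9 against 31.0, 40.2 and 40.7 CPM (-0.50 ± 0.23, adjusted p = 0.476). These 3 genes, named for the lowest p, were the only ones of the 12 without overlap (2 above and 1 below both controls, beside 14.6% and 15.3% of all genes).

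**Figure D5:**
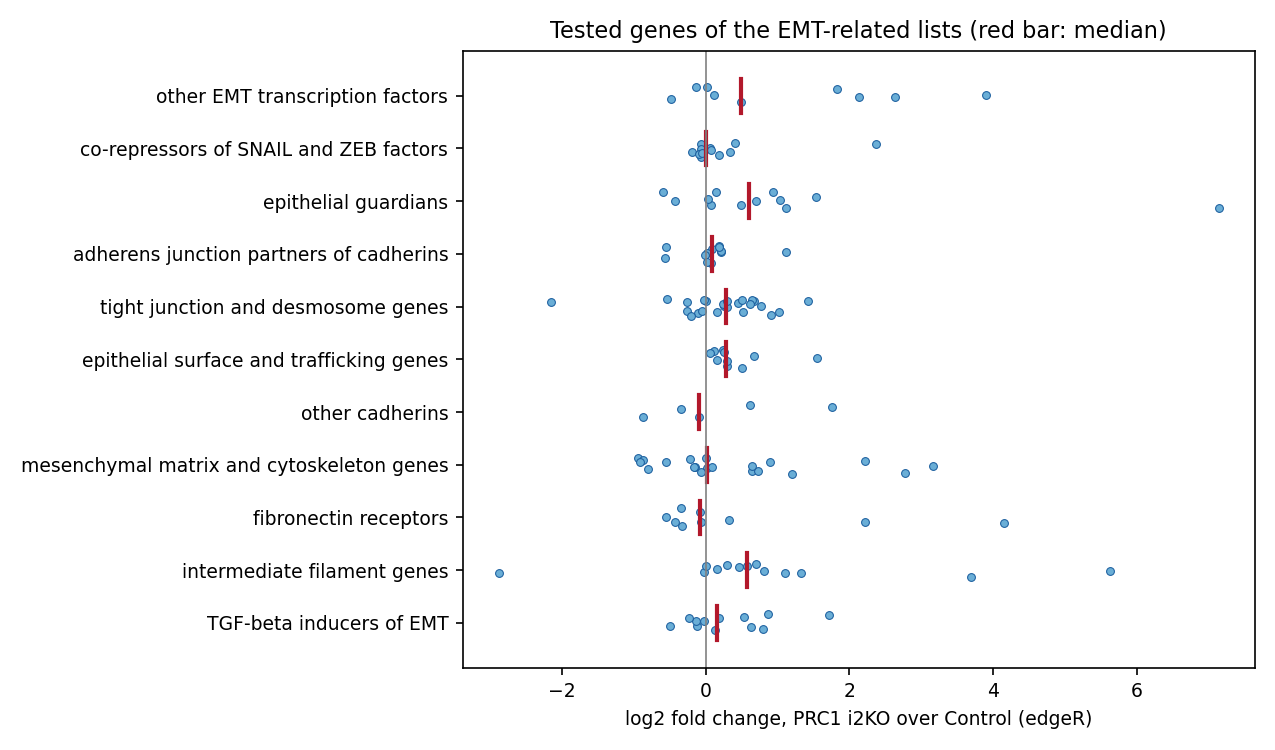
log2 fold change of PRC1 i2KO over Control by edgeR for every tested gene of the 11 EMT-related lists, 1 point per gene, with the median of each list as a red bar. The medians run from -0.09 (other cadherins) to 0.59 (epithelial guardians), and the point farthest to the right is Elf3, whose fitted value is no bound because it had no control count.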

How the data were processed

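Polyadenylated RNA of sorted hair follicle stem cells was measured in 2 Control and 3 PRC1 i2KO samples. For each feature and sample the authors deposited an expected count (an estimate, with 60.4% of all values not whole) and a TPM value. The build mm39 and the tools RSEM 1.3.3, STAR 2.7.9a and DESeq2 1.38.2 appear in the submitters' processing notes, which state no roles. Expected counts were rounded before testing. TPM was scaled for transcript length by the authors, whose deposited columns sum to between 999962.6 and 999977.5.

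Samples were grouped by genotype from their titles. The members and gene lists were chosen with earlier results of these data known. Genes were tested with edgeR 4.0.16 (filterByExpr, TMM, quasi-likelihood F test, no covariate) over 22181 genes, adjusted by Benjamini-Hochberg at 0.05, and the script was checked on simulated counts. DESeq2 1.42.0, limma 3.58.1 (voom, and log2(TPM + 1) on 17191 genes with at least 1 TPM in 2 libraries), other scalings, no filter, replicate blocks and leaving out each library were alternatives. CPM uses TMM library sizes. Log2 fold changes are given ± SE. Counting intervals (95%, exact Poisson, or exact binomial for ratios) and the floor of 3 counts cover counting error only. All members were named, together with the genes of lowest p in each list (up to 3), the genes most alike to Vim, Cdh1 and Fn1 in log2 CPM (prior count 2) and the defining cell type markers. A few genes that this rule names are not reported here. Gene overlaps came from GENCODE M21, a GRCm38 annotation that held 99.97% of the identifiers.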

Additional observations from a re-analysis of the deposited data

How the results depend on the processing

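No member of the EMT list was called under any edgeR or limma setting run, and DESeq2 called 1, Vim. Of 104 values of members under the alternatives, 96 kept direction and call. Over all genes, 28 higher and 0 lower became 140 and 12 with no filter on low counts, 754 and 166 by DESeq2, 4 and 0 by limma-voom, 7 and 13 by limma on log2(TPM + 1), 7 and 1 by limma on log2(TPM + 0.1), and 27 and 3 on library sizes alone. Leaving out each library in turn gave 4 to 39 higher and 0 to 4 lower. With the replicate number of the titles as a block 140 were higher and 25 lower, and with that of the descriptions 10 and 0. Deviations of same-numbered samples from their group mean correlated across genes at 0.065 and 0.041 by title and -0.024 and -0.065 by description. The deviations of the Control samples mirror each other, so these values cannot decide whether same-numbered samples share more than a number. With the replicate block by description, Snai2 was at 0.079 and Zeb1 at 0.025. Leaving out each library moved Snai2 between -0.31 and 0.078 and Zeb1 between -1.36 and 2.05. Cdh1 was at -0.12 on library sizes alone and at -0.16 with both TPM pseudocounts. The cause was not tested. Of the 77 alternative list medians, 28 moved by more than the spread between the PRC1 i2KO libraries. Depth limits the TWIST genes and Cdh2 most, with 11 to 92 counts in all.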
